A study of Saccharomyces cerevisiae with 15 samples.

Results

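The 100 genes described here had their highest strain level in C3-06, an intermediate strain of an evolution series, when it was set against the original β-carotene strain, C0, and the final strain, C7-143. They were taken by rule from 5291 genes that could have been chosen, of 5980 in the deposited table. For each gene the reads were divided by the library's total and scaled to a common total for every library (CPM), and a strain's value was the log2 of the mean CPM of its 3 libraries plus 1. Genes had to reach a mean of 10 CPM in C3-06, and genes named GAL, RPL or RPS were left out. The score was the smaller of the differences C3-06 minus C0 and C3-06 minus C7-143, and the 100 highest scores were kept. These values chose the members, so every difference of C3-06 from C0 or C7-143 is given as a description and carries no test.

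RNA was sequenced from 5 strains of the budding yeast Saccharomyces cerevisiae in the S288C background, with 3 libraries each. All carry the deletions his3Δ1, leu2Δ0, met15Δ0 and ura3Δ0 and overexpress the nuclease spCas9-NG, the control included. BY47419 is the starting strain with the nuclease alone. C0 also overexpresses the carotenoid genes CrtE, CrtYB and Crt I together with HMG1, an enzyme of mevalonate synthesis, and is labelled as the original β-carotene producer. C3-06, C5-63 and C7-143 overexpress the same genes as C0. C3-06 and C5-63 are labelled as strains from within the evolution and C7-143 as its final strain. YPD cultures, with glucose at 20 g/L, were kept at 30 °C and harvested near an optical density of 3. The labels do not say which strain descends from which, so a peak in C3-06 is a peak among strains and not a time course. They name no mutation of an evolved strain, and each stage is represented by 1 strain. Whether the 3 libraries per strain are independent cultures is not stated either, and p-values here reflect a spread among libraries that may be technical.

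The libraries held 16144808 to 21586409 reads on genes, and 5839 to 5871 genes had at least 1 read. Replicate 1 of C3-06 stood apart from the other 2 libraries of that strain. The chi-square of its counts per degree of freedom was 103 and 74.2 against replicates 2 and 3, which differed by 13.6 from each other. Replicate 2 of BY47419 stood apart in the same way, at 111 and 61.1 against 15.1. The strains also differed in the make-up of their RNA. Ribosomal protein genes took 0.349% to 0.436% of the reads in BY47419, 0.437% to 0.476% in C0, 2.10% to 2.89% in C3-06, 3.19% to 3.65% in C5-63 and 4.42% to 5.55% in C7-143. A list of 29 stress genes under Msn2 and Msn4 took 9.61% to 10.0%, 8.28% to 9.10%, 3.67% to 5.21%, 2.48% to 2.98% and 1.62% to 1.93% in the same order. The part of these shifts in the members' levels was not tested. The members themselves took 1.18% to 1.38% of the reads in BY47419, 1.38% to 1.55% in C0, 2.83% to 2.97% in C3-06, 1.99% to 2.12% in C5-63 and 1.33% to 1.46% in C7-143.

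Several of the members belong to well-studied systems. The yeast cell wall is a layer of glucan, chitin and mannoproteins, and damage to it is sensed at the plasma membrane and passed through a kinase cascade ending in the MAP kinase Slt2, which acts on transcription factors such as Rlm1. Glucose enters through a family of hexose transporters whose genes are induced or repressed at different glucose levels, in part through the repressor Rgt1. Biotin and thiamine are cofactors of carboxylases and of decarboxylases, and yeast can make part or all of each pathway itself.

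Promoter windows of 4 members are printed here from the R64 reference genome, the build of the table's coordinates. Each holds the 250 bases before the start codon and the first 50 bases of the coding sequence, 300 bases in all, on the gene's own strand. BIO3 is shown because it shares its upstream region with a neighbouring member, BIO4. SED1 is the member with the most reads and also stands beside another member, RAD55. BGL2 and PTP2 are shown because their windows hold a match to the Rlm1 motif, and they were picked after the matches were seen. Capitals mark the 29 bases of the BIO3 window (chrXIV:734041-734340, plus strand) that lie in the coding sequence of BIO4, the Rlm1 motif in BGL2 (chrVII:1058675-1058974, minus strand) and PTP2 (chrXV:733675-733974, plus strand), and the Msn2 and Msn4 motif in SED1 (chrIV:600543-600842, plus strand). Matches to other motifs are not marked.
BIO3: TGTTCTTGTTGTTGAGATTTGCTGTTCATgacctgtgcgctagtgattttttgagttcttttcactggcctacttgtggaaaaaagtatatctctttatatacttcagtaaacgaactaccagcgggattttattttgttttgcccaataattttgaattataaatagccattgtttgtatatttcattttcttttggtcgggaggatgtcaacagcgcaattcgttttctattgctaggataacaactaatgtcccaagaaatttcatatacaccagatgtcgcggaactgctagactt
SED1: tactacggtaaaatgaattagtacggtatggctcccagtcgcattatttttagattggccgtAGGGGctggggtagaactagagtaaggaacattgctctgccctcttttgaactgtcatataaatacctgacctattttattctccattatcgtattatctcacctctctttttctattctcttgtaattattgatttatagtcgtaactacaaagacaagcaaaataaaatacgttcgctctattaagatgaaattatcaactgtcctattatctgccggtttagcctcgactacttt
BGL2: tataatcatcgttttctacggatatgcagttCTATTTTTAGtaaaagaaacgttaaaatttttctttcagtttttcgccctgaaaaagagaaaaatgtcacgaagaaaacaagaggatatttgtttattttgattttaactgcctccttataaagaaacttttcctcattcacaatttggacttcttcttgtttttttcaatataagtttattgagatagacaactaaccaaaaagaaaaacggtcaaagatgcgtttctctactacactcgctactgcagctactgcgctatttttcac
PTP2: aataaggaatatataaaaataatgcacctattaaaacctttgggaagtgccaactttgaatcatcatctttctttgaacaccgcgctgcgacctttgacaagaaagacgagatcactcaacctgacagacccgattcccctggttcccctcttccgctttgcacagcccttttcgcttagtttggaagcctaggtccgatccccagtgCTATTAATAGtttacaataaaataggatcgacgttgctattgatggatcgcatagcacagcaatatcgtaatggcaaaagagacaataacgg

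The rule's scores ran from 0.54 to 1.70 with a median of 0.69, and 18 members scored 1 or more. The last members inside the limit were FLO11, TTI1 and SHQ1 at 0.546, 0.543 and 0.540, and the first genes outside it were YAL037W, CTF19 and RKM2 at 0.540, 0.538 and 0.537, so no gap in the scores separates them. The difference from C0 had a median of 0.87 and the difference from C7-143 one of 0.83 on the log2 scale. In 62 members the difference from C0 was the larger. On the TMM scale, which corrects each library for its make-up and is the scale of the fits, the members' mean in C3-06 was 10.0 to 8720 CPM with a median of 56.9, below 50 CPM in 45 members and at least 1000 CPM in 5. All levels from here on are CPM on that scale unless called plain. All 100 members passed the fit's filter on low counts, which a minimum of 10 CPM made certain.

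In the fit of all 15 libraries, 99 members were called higher in C3-06 than in C0, where 41.1% of the genes tested were, and none lower, where 39.4% were. Against C7-143, 100 were called higher, where 34.3% of genes were (33.7% were lower), and 99 were called higher than both, as 6.12% of genes were. These counts follow from the choice. SPS100, which encodes a protein of spore wall maturation, was the member not called against C0. Every C3-06 library lay above every C0 and C7-143 library in 96 members on the TMM scale and in 100 on plain CPM. The share of genes that could have been chosen was 7.11% on the TMM scale. Of all genes tested, 2387 were called higher in C3-06 than in C0 and 356 were called higher than in both strains.

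**Figure D1:**
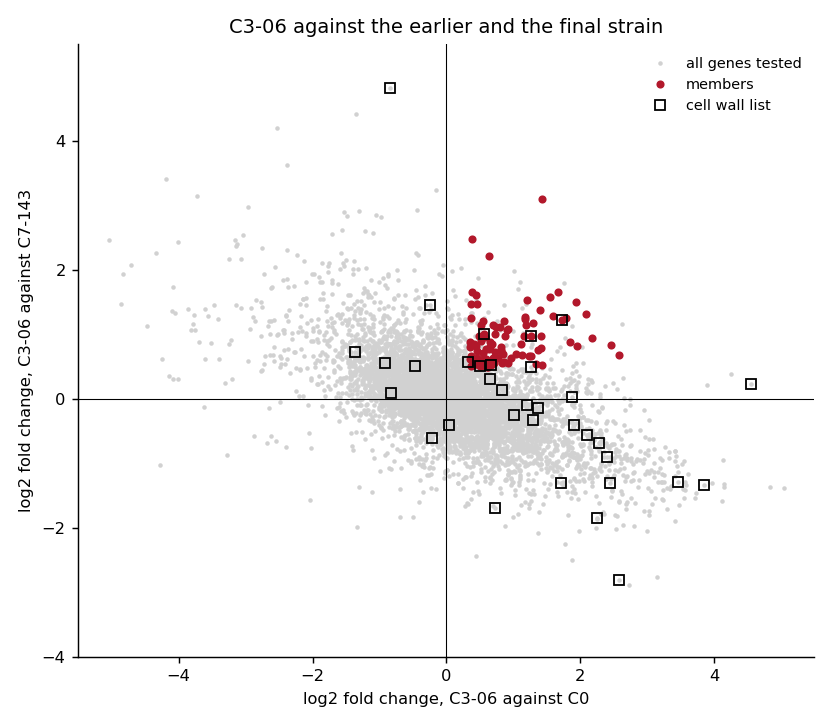
Fitted log2 fold change of C3-06 against C0 (horizontal axis) and of C3-06 against C7-143 (vertical axis) for all 5814 genes tested (grey), the 100 members (red) and the cell wall list (open squares), with 1 gene outside the axes. The members lie in the upper right by choice, and 5 of the cell wall genes lie among them.

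What the rule did not use is the contrast between C5-63 and BY47419, since neither strain entered it. That does not make it independent of the choice. The members were chosen as higher in C3-06 than in C0, and C5-63 may share that difference. The share that rose among other genes higher in C3-06 than in C0 was not counted. The members were mostly higher in C5-63: 72 of 100 rose, where 42.7% of the genes tested did, and 4 fell, where 42.4% did (edgeR quasi-likelihood test, adjusted p below 0.05 by Benjamini-Hochberg over 5814 genes). The median log2 fold change was 0.56 over the members and 0.003 over all genes tested. It ran from -1.69 in SPS100 to 2.86 in YPR145C-A, and 14 members were below 0. All 3 C5-63 libraries lay above all 3 BY47419 libraries in 74 members, where 42.3% of the genes that could have been chosen did, and below them in 4, where 44.7% did. Without replicate 2 of BY47419, 68 members rose, and 75 did without replicate 1 of C3-06 in the fit. Scaled by library totals alone, the median of all genes moved up by 0.46, 92 members rose and 1 fell. The difference between the 2 medians was 0.56 under that scaling too. Lists with no member also moved in the main fit. Of 45 genes for translation factors and tRNA synthetases 37 rose and 5 fell. Of 27 for ergosterol and mevalonate synthesis 23 rose and 3 fell, and of 29 stress genes under Msn2 and Msn4 0 rose and 28 fell.

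**Figure D2:**
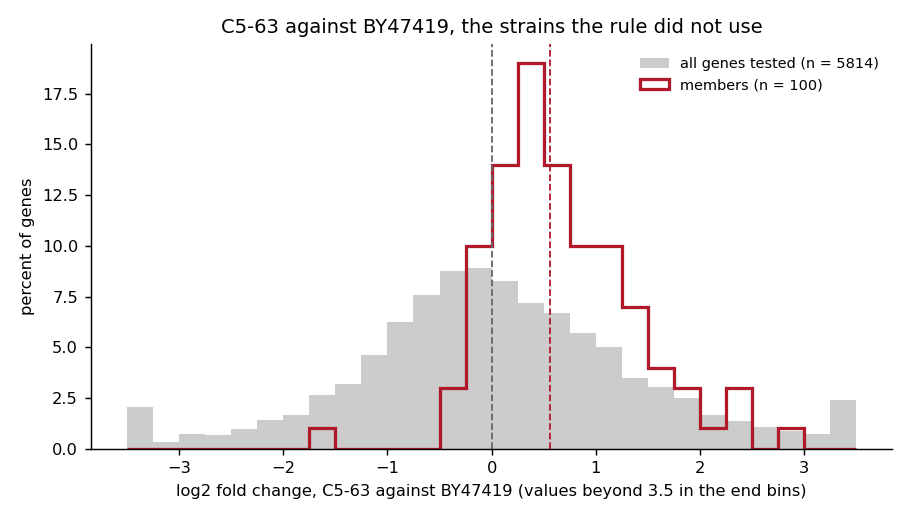
Log2 fold changes of C5-63 against BY47419, as percent of genes per bin of 0.25, for all 5814 genes tested (grey, 202 of them beyond 3.5 and counted in the end bins) and the 100 members (red line). Dashed lines mark the medians, 0.003 for all genes and 0.56 for the members.

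The members with the lowest adjusted p in that contrast belong to different systems. ESF1, a nucleolar protein of 18S ribosomal RNA processing, stood at 50.7, 47.1 and 54.4 CPM in BY47419 and at 253, 275 and 256 CPM in C5-63. The libraries of the 2 strains lay far apart, and differed by 2.37 ± 0.08 (SE) on the log2 scale with an adjusted p of 6.1e-13 (edgeR). In C3-06 it reached 402, 369 and 342 CPM, and in C7-143 it was at 223, 232 and 244 CPM, over 62.8, 56.4 and 67.5 CPM in C0. In C7-143 its libraries thus lay between those of C0 and C3-06 and overlapped neither. YNR064C, an epoxide hydrolase and the member with the highest score, stood at 21.2, 20.7 and 18.8 CPM in BY47419 and 72.2, 78.3 and 79.9 CPM in C5-63, 1.92 ± 0.08 higher on the log2 scale (adjusted p = 2.3e-12, edgeR). It had 103, 110 and 104 CPM in C3-06, over 31.6, 34.4 and 34.0 in C0 and 31.1, 36.8 and 32.1 in C7-143, which overlap. ICL2, the mitochondrial 2-methylisocitrate lyase, stood at 85.1, 79.8 and 86.7 CPM in BY47419 and 212, 213 and 201 CPM in C5-63, 1.32 ± 0.06 on the log2 scale (adjusted p = 4.2e-12, edgeR). Its C3-06 libraries, at 220, 217 and 209 CPM, overlapped those of C5-63, over 81.7, 87.7 and 85.8 CPM in C0 and 148, 155 and 142 in C7-143. YPS3, a GPI-anchored aspartic protease of the cell surface, stood at 112, 119 and 111 CPM in BY47419 and at 317, 333 and 334 CPM in C5-63, 1.52 ± 0.08 on the log2 scale (adjusted p = 1.3e-11, edgeR). It reached 411, 486 and 457 CPM in C3-06, over 116, 136 and 123 in C0 and 259, 240 and 238 in C7-143.

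The 4 members that fell were SPS100, TOD6, PRX1 and EDC2. SPS100 stood at 388, 342 and 391 CPM in BY47419, 172, 235 and 168 in C0, 333, 205 and 213 in C3-06, 103, 172 and 72.7 in C5-63 and 53.6, 31.3 and 50.3 in C7-143. BY47419 was its highest strain, and the C3-06 and C0 libraries overlapped. C5-63 was lower than BY47419, and the log2 fold change was -1.69 ± 0.28 (edgeR, adjusted p = 5.0e-05). PRX1, a mitochondrial peroxiredoxin, stood at 998, 955 and 1010 CPM in BY47419 and 652, 772 and 712 CPM in C5-63, and fell by 0.47 ± 0.10 on the log2 scale (adjusted p = 0.00044, edgeR). EDC2, which promotes messenger RNA decapping, stood at 343, 341 and 293 CPM in BY47419 and 215, 255 and 223 CPM in C5-63, and fell by 0.49 ± 0.12 (adjusted p = 0.0016, edgeR). TOD6, a repressor of ribosome biogenesis genes that binds the PAC element, stood at 47.8, 39.2 and 42.0 CPM in BY47419 and 32.5, 32.0 and 34.0 CPM in C5-63, and fell by 0.39 ± 0.08 (adjusted p = 0.00022, edgeR). All 3 were lowest in C7-143. PRX1 had 956, 1066 and 969 CPM in C0, 1565, 1164 and 1346 in C3-06 and 419, 435 and 477 in C7-143. EDC2 had 303, 396 and 293 CPM in C0, 492, 372 and 424 in C3-06 and 160, 138 and 168 in C7-143, and its C0 and C3-06 libraries overlapped. TOD6 had 39.1, 36.4 and 36.7 CPM in C0, 46.8, 50.3 and 48.2 in C3-06 and 19.5, 20.2 and 21.2 in C7-143. With library totals alone the change was 0.07 for TOD6, -0.02 for PRX1 and -0.04 for EDC2 on the log2 scale, none of them called.

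Relative to C0, the median member was higher in C3-06 and at about the level of C0 in C7-143, as the plot of strain means shows. C3-06 was the highest of the 5 strain means in 94 members on the TMM scale and in 87 on plain CPM, where 10.4% of the genes that could have been chosen had it highest on the TMM scale. C5-63 lay between C7-143 and C3-06 in 89 members, where 33.1% of genes did. It lay above C3-06 in 5, YPR145C-A, NRE1, VBA2, ROG3 and SHQ1, and below C7-143 in 6, SPO73, RAD55, YHR007C-A, DOG2, TPH3 and ATR2. On the log2 scale the median member stood 46.1% of the way from C7-143 up to C3-06, and 45 members stood more than 50% of the way. C3-06 was called higher than C5-63 in 71 members, where 21% of genes were, and lower in 1, where 19.8% were. C5-63 was called higher than C7-143 in 65, where 23.9% of genes were, and lower in none, where 25% were. It was called higher than C0 in 60 members, where 41.4% of genes were, and lower in 10, where 41.8% were. All C5-63 libraries lay below all C3-06 libraries in 75 members, as in 29% of the genes that could have been chosen, and above all C7-143 libraries in 72, as in 32.8%. These counts share a strain with the rule and are descriptions.

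BY47419, which lacks the carotenoid genes, was set beside C0. C0 entered the rule, so the values and counts that follow are descriptions. The mean of BY47419 lay below that of C0 in 77 members on the TMM scale, as in 44.9% of the genes that could have been chosen, and in 92 on plain CPM. C0 was called higher in 36 members, where 12.2% of genes were, and lower in 3, where 18% were. The most frequent order of the means, in 34 members, was BY47419, C0, C7-143, C5-63 and C3-06 from low to high. C7-143 was above C0 in 47 members, where 48.6% of the genes that could have been chosen were. YDR010C had the largest difference between C0 and BY47419, 3.43 on the log2 scale: it stood at 1.95, 1.90 and 1.96 CPM in BY47419 and 18.0, 24.3 and 20.6 CPM in C0, then at 34.4, 21.4 and 26.5 CPM in C3-06, 10.0, 11.3 and 10.6 CPM in C5-63 and 8.76, 8.40 and 8.97 CPM in C7-143. Its C0 and C3-06 libraries overlapped.

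**Figure D3:**
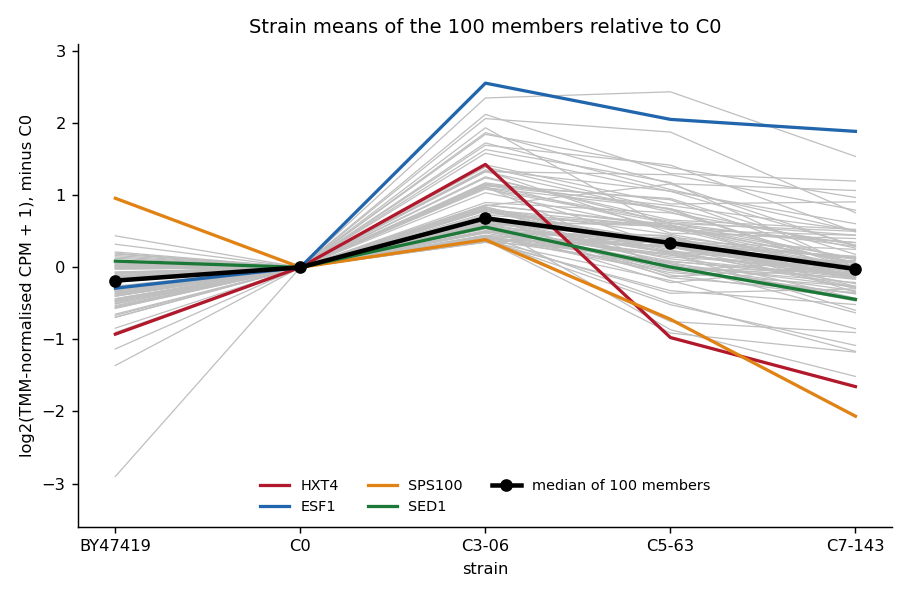
Strain means of the 100 members as log2(TMM-normalised CPM + 1) minus the value in C0 (grey lines), with the median in black and 4 members in colour. The peak at C3-06 follows from the rule, while BY47419 and C5-63 did not enter it. SPS100 was highest in BY47419, and ESF1 was also high in C7-143.

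Among the functional groups, formed by hand after the names and values were known, the cell wall and its signalling held the most members, 14. In C5-63 against BY47419, 12 of the 14 rose and none fell, with a median log2 fold change of 1.07 (edgeR, adjusted p below 0.05). SED1 and BGL2 were not called. Over all genes tested 42.7% rose and 42.4% fell, and of the 100 members 72 rose and 4 fell, with a median of 0.56. SLT2, the MAP kinase of the cell wall integrity pathway (chrVIII:168890-170344), stood at 60.5, 74.3 and 54.0 CPM in BY47419 and 93.6, 109 and 104 CPM in C0. It was at 261, 230 and 247 CPM in C3-06, 160, 159 and 153 CPM in C5-63 and 135, 123 and 119 CPM in C7-143. None of the 5 strains overlapped, and C5-63 was above BY47419 by 1.32 ± 0.10 on the log2 scale (adjusted p = 2.2e-09, edgeR). PST1, a GPI-anchored wall protein, had 192, 247 and 198 CPM in BY47419, 236, 247 and 228 CPM in C0, 785, 777 and 798 CPM in C3-06, 483, 552 and 471 CPM in C5-63 and 342, 343 and 324 CPM in C7-143. Here BY47419 and C0 overlapped, and C5-63 was above BY47419 by 1.24 ± 0.09 (adjusted p = 1.5e-09, edgeR).

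BAG7, a GTPase-activating protein for Rho1, was among the wall-related members that changed most. It stood at 42.9, 51.9 and 54.6 CPM in BY47419, 49.3, 52.2 and 63.9 in C0, 216, 264 and 222 in C3-06, 199, 240 and 177 in C5-63 and 108, 77.5 and 96.2 in C7-143. C5-63 was above BY47419 by 2.04 ± 0.15 on the log2 scale (adjusted p = 1.5e-09, edgeR), and its libraries overlapped those of C3-06. SMP1, a MADS-box transcription factor and paralogue of Rlm1, was at 6.93, 10.7 and 7.29 CPM in BY47419, 9.63, 10.5 and 11.4 in C0, 33.9, 36.9 and 37.9 in C3-06, 29.5, 29.6 and 30.2 in C5-63 and 14.5, 15.1 and 15.9 in C7-143. GPI18, a mannosyltransferase of GPI anchor synthesis, was at 52.0, 68.4 and 57.5 CPM in BY47419, 82.3, 86.7 and 89.4 in C0, 203, 180 and 199 in C3-06, 122, 126 and 128 in C5-63 and 81.9, 82.2 and 82.1 in C7-143. KTR2, a Golgi mannosyltransferase, was at 33.6, 32.6 and 33.4 CPM in BY47419, 36.0, 34.5 and 34.9 in C0, 77.4, 82.4 and 75.4 in C3-06, 70.1, 72.4 and 64.8 in C5-63 and 41.6, 39.9 and 38.4 in C7-143. In these 3 genes C3-06 lay above every other strain, and C5-63 above BY47419 by 1.83 ± 0.13, 1.08 ± 0.08 and 1.06 ± 0.06 on the log2 scale. PRY1, a secreted sterol-binding protein, was at 267, 354 and 290 CPM in BY47419, 321, 366 and 304 in C0, 999.8, 990 and 985 in C3-06, 625, 748 and 688 in C5-63 and 392, 386 and 447 in C7-143, and rose by 1.18 ± 0.11 in C5-63 against BY47419 (adjusted p = 2.2e-08, edgeR).

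The 2 wall members with the highest levels per length, SED1 and BGL2, had the smallest changes of the group in C5-63 against BY47419. SED1, a structural GPI-anchored wall protein, had the highest level per length of all members in C3-06, 9192 FPKM, against a median of 65.8 FPKM over the members. It stood at 6129, 6469 and 6259 CPM in BY47419, 5573, 6571 and 5611 in C0, 9175, 8208 and 8778 in C3-06, 5755, 6140 and 5923 in C5-63 and 4449, 4049 and 4545 in C7-143. C3-06 lay above all other strains, and C5-63 against BY47419 was -0.08 ± 0.11 on the log2 scale, not called (adjusted p = 0.49, edgeR) and 0.37 with library totals alone. BGL2, a β-glucanase of the wall, stood at 1105, 1218 and 1153 CPM in BY47419, 1147, 1204 and 1111 in C0, 1824, 1548 and 1529 in C3-06, 1285, 1350 and 1251 in C5-63 and 1114, 1165 and 1160 in C7-143. C5-63 against BY47419 was 0.16 ± 0.09 (adjusted p = 0.090, edgeR), although its libraries did not overlap, and the call was made without replicate 1 of C3-06 (adjusted p = 0.047). PTP2, a tyrosine phosphatase acting on Slt2 and Hog1, was at 82.7 to 84.9 CPM in BY47419 and 101 to 112 CPM in C5-63, higher by 0.34 ± 0.08. PIR5 stood at 4.26, 5.70 and 4.39 CPM in BY47419, 4.65, 5.56 and 5.82 in C0, 9.40, 10.7 and 10.3 in C3-06, 6.08, 7.39 and 6.70 in C5-63 and 3.00, 4.96 and 6.34 in C7-143. It rose by 0.48 ± 0.21 (adjusted p = 0.039, edgeR), a call lost when any of 3 libraries was left out, and FLO11, the flocculin, rose by 0.75 ± 0.18 (adjusted p = 0.00100).

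A wider list of 34 measured cell wall genes was compared with the members. Of the list, 26 were called higher in C3-06 than in C0 and 6 lower, where 41.1% and 39.4% of all genes tested were. Against C7-143, however, 13 were called higher in C3-06 and 15 lower, where 34.3% and 33.7% were. Higher than both were 8 of the 34, where 6.12% of all genes were. Of these 8, 5 are the members in the list: PST1, SLT2, SED1, BGL2 and FLO11. They were chosen for being higher than both, so the count follows in large part from the choice. The others were CWP1, CCW14 and FLO5. SCW10, a glucanase-like wall protein, stood at means of 61.7 CPM in C0, 893.8 in C3-06 and 2254 in C7-143, and GAS1, a glucanosyltransferase, at 32.9, 360.7 and 883.3. PIR3, by contrast, stood at 1689, 940.1 and 33.4 CPM in the same strains. In C5-63 against BY47419, 24 of the 34 rose and 6 fell, where 42.7% and 42.4% of all genes tested did, and the list's median was 1.26. The rise of the wall members there was thus shared by other wall genes.

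Sugar transport gave 2 of the 3 highest scores. HXT4, a hexose transporter, stood at 309, 436 and 327 CPM in BY47419, 652, 697 and 692 in C0, 2338, 1431 and 1732 in C3-06, 234, 390 and 414 in C5-63 and 166, 213 and 267 in C7-143. C3-06 lay above all other libraries, with replicate 1 the highest, and C5-63 overlapped both BY47419 and C7-143. C5-63 against BY47419 was -0.05 ± 0.22 on the log2 scale (adjusted p = 0.85, edgeR), and 0.40 with library totals alone, not called either. HXT2, another transporter, stood at 76.1, 65.1 and 71.6 CPM in BY47419, 200, 159 and 193 in C0, 561, 733 and 826 in C3-06, 190, 234 and 368 in C5-63 and 231, 251 and 270 in C7-143. C5-63 was above BY47419 by 1.90 ± 0.20 (adjusted p = 2.0e-07, edgeR) and overlapped C0 and C7-143. Here replicate 1 was the lowest of the C3-06 libraries.

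The other hexose transporters did not share the peak. HXT3 stood at means of 160.1 CPM in BY47419, 284 in C0, 1237 in C3-06, 1286 in C5-63 and 1136 in C7-143. It was thus near its C3-06 level in C5-63 and C7-143 too. HXT5 lay the other way, at 3492, 2467, 279.8, 98.7 and 54.0 CPM in the same order. HXT6 did too, at 1406, 1234, 47.1, 13.4 and 11.2 CPM, as did HXT7, at 382, 398, 84.9, 23.1 and 18.2 CPM. HXT6 and HXT7 are near-identical copies, so reads may have been split between them and their levels are uncertain. Of the 20 genes in the list of hexose transport and sensing, 5 were called higher and 9 lower in C3-06 than in C0. Over all genes tested 41.1% were higher and 39.4% lower. Against C7-143, 11 were higher and 2 lower, where 34.3% and 33.7% of all genes were. HXT2 and HXT4, the members, were the 2 that were higher than both, as they were chosen to be. In C5-63 against BY47419, 6 of the 20 rose and 9 fell, where 42.7% and 42.4% of all genes did.

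**Figure D4:**
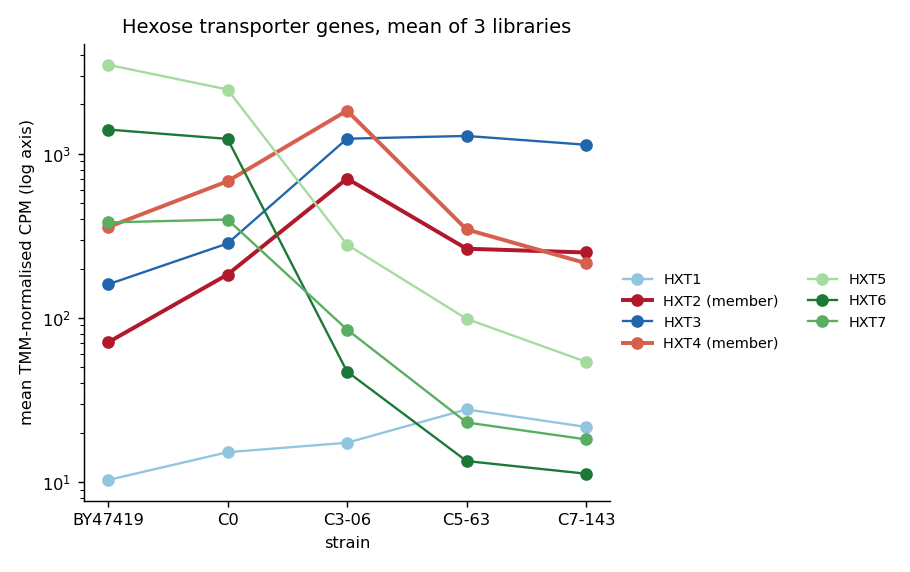
Mean TMM-normalised CPM of 7 hexose transporter genes in the 5 strains (log axis, mean of 3 libraries). HXT2 and HXT4 have their highest mean in C3-06, HXT3 stays near its C3-06 level of 1237 CPM, and HXT5, HXT6 and HXT7 are lower in each strain after C0.

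Vitamin and cofactor genes made up 9 members, 8 of which rose in C5-63 against BY47419 with none falling (median 0.68). RMA1 was not called. Over all genes tested 42.7% rose and 42.4% fell, and of the 100 members 72 rose and 4 fell, with a median of 0.56. The group thus lay near the members as a whole. BIO3 and BIO4 encode consecutive enzymes of biotin synthesis, an aminotransferase and the dethiobiotin synthetase, and lie head to head on chromosome XIV with 221 bases between them. BIO3 stood at 15.7, 20.0 and 14.7 CPM in BY47419, 19.9, 24.6 and 23.0 in C0, 52.0, 50.9 and 50.8 in C3-06, 41.2, 47.5 and 43.4 in C5-63 and 20.1, 22.9 and 26.4 in C7-143. BIO4 stood at 9.02, 8.64 and 8.04, 12.4, 12.6 and 11.7, 31.0, 31.8 and 33.9, 18.2, 25.3 and 21.3, and 9.76, 13.9 and 13.4 CPM in the same order. In both genes C3-06 was above every other strain, and C5-63 was above BY47419 by 1.38 ± 0.12 (adjusted p = 1.6e-08) and 1.33 ± 0.14 (adjusted p = 1.6e-07, edgeR). The other biotin genes of the list, chosen for the pathway, did not peak in C3-06. BIO2, the biotin synthase, had means of 47.7 CPM in C0, 69.9 in C3-06 and 128.9 in C7-143. BIO5, a transporter of a biotin precursor, had 49.6, 25.7 and 13.4 CPM in the same strains.

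THI4, the thiazole synthase of thiamine synthesis, was at 2.60, 4.43 and 3.98 CPM in BY47419, 7.61, 7.77 and 7.81 in C0, 20.6, 15 and 18 in C3-06, 8.88, 10.5 and 9.52 in C5-63 and 7.31, 5.11 and 6.18 in C7-143. C5-63 was above BY47419 by 1.38 ± 0.18 (adjusted p = 2.9e-06, edgeR). Of the 26 genes for thiamine, biotin and pyridoxine, 9 rose and 8 fell in that contrast, where 42.7% and 42.4% of all genes tested did. In C3-06, 4 were higher than in both C0 and C7-143, where 6.12% of all genes were. They were THI3, a regulator of thiamine genes, and BIO3, BIO4 and THI4, which are members and higher than both by choice. PET18 stood at 7.65, 9.90 and 9.59 CPM in BY47419, 11.8, 12.3 and 14.2 in C0, 25.0, 23.4 and 23.7 in C3-06, 17.8, 21.7 and 19.8 in C5-63 and 11.2, 11.8 and 11.3 in C7-143, and rose by 1.12 ± 0.11 in C5-63 against BY47419 (adjusted p = 1.0e-07, edgeR). TPC1, the mitochondrial carrier of thiamine pyrophosphate, and COQ6, a monooxygenase of coenzyme Q synthesis, each rose by 0.68 on the log2 scale in C5-63 against BY47419. DFR1, the dihydrofolate reductase, rose by 0.34 and PPT2 by 0.56.

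**Figure D5:**
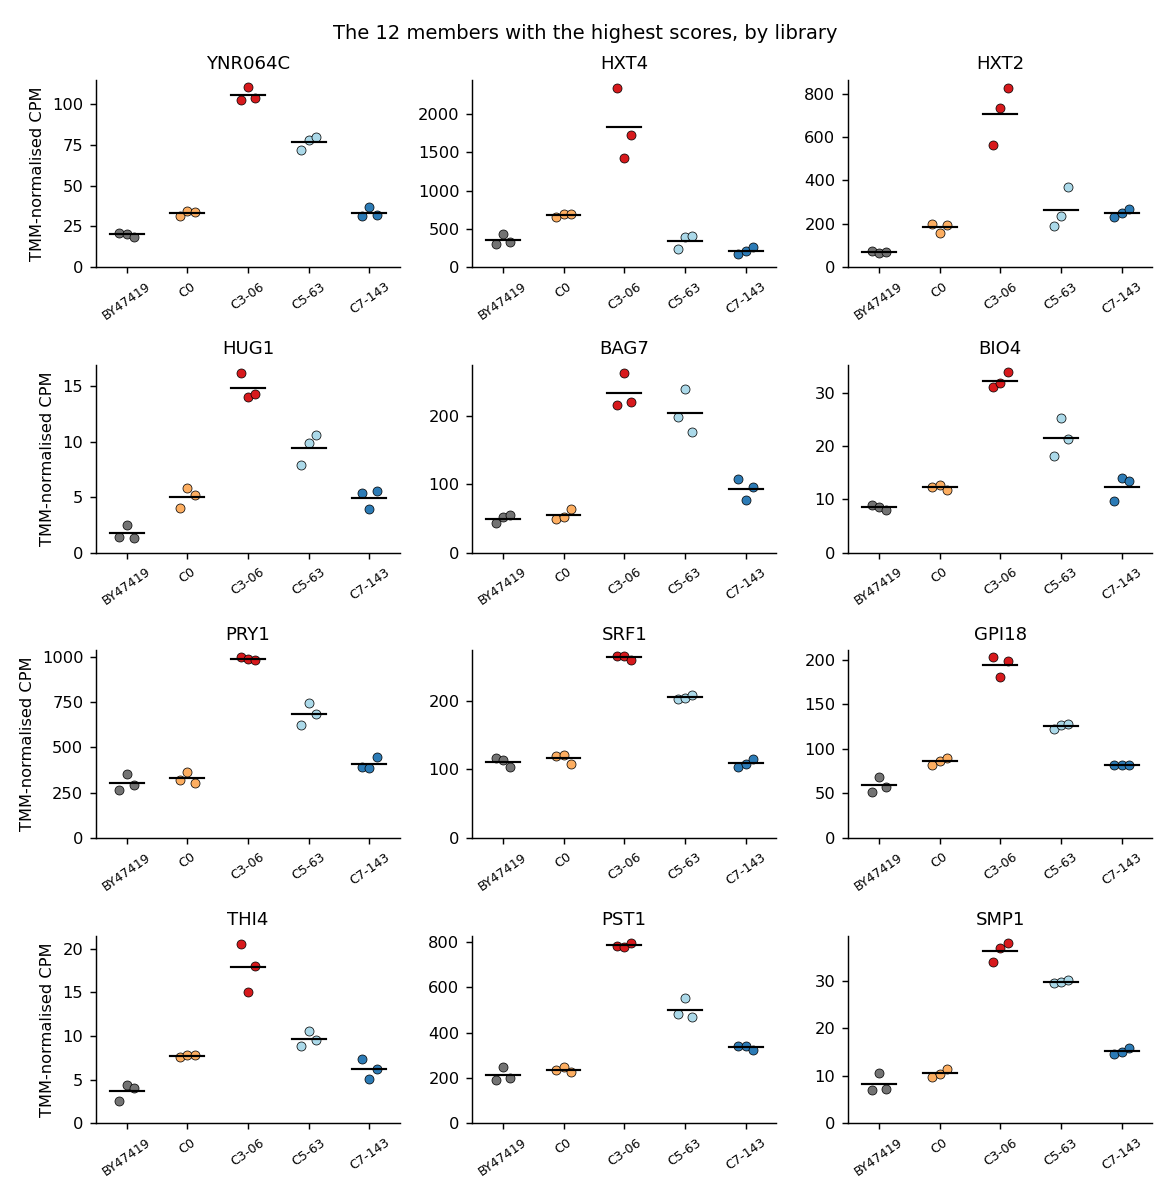
TMM-normalised CPM of the 12 members with the highest scores in each of the 15 libraries (points, replicates 1 to 3 from left to right; bars, strain means; axes start at 0). C3-06 lies above C0 and C7-143 in all 12 by choice, and in HXT4 and HXT2 the C3-06 libraries are the most spread.

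HUG1, a small inhibitor of ribonucleotide reductase induced by DNA damage, was at 1.37, 2.53 and 1.35 CPM in BY47419, 4.04, 5.86 and 5.19 in C0, 16.2, 14.0 and 14.3 in C3-06, 7.92, 9.90 and 10.6 in C5-63 and 5.41, 3.93 and 5.51 in C7-143. C5-63 was above BY47419 by 2.40 ± 0.23 on the log2 scale (adjusted p = 4.1e-08, edgeR). RMI1, a subunit of the Sgs1-Top3 complex, rose by 1.00 ± 0.10, from 13.1 to 16.2 CPM in BY47419 to 27.0 to 31.7 CPM in C5-63. RAD55, of recombinational repair, was not called, at 0.06 ± 0.19. Of the list of 20 DNA damage genes, HUG1 and RAD55 are the members. In C5-63 against BY47419, 6 of the 20 rose and 8 fell, with a median of -0.12 on the log2 scale. Over all genes tested 42.7% rose and 42.4% fell, so the list lay near that share.

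Some members are known for mating and sporulation rather than for growth. STE3, the a-factor receptor of α cells, was at 5.40 to 6.85 CPM in BY47419, 8.84 to 12 in C0, 18.5 to 21.9 in C3-06, 15.8 to 21.8 in C5-63 and 11.4 to 14.8 in C7-143. SAG1, the α-agglutinin, was at 62.2 to 66.5, 61.8 to 64.5, 79.4 to 95.4, 69.8 to 84.4 and 58.1 to 60.8 CPM. Both rose in C5-63 against BY47419, by 1.56 ± 0.16 (adjusted p = 8.9e-08) and 0.27 ± 0.08 (adjusted p = 0.0039, edgeR). The 4 markers of the α type together held 60.9 to 66.3, 73.0 to 76.1, 125 to 131, 119 to 127 and 81.3 to 87.6 plain CPM in the 5 strains. The 7 markers of the a type held 384 to 541, 705 to 725, 843 to 1162, 1268 to 1551 and 1041 to 1175, so a-type transcripts were the more abundant in every strain. Most of the α sum is STE3 and SAG1, with plain means of 22.1 and 92.6 CPM in C3-06, and both are members, so the peak of the sum there follows in large part from the choice. The α-factor genes, which are not members, were lower: MF(ALPHA)1 had plain means of 0.733 to 2.35 CPM over the strains and MF(ALPHA)2 of 3.40 to 10.7 CPM. At these low levels both also had their highest plain mean in C3-06, with 2.05 and 9.76 CPM in C5-63. Of 9 members for meiosis and spore formation, 5 rose in C5-63 against BY47419 and SPS100 fell, where 42.7% of all genes tested rose and 42.4% fell. Of all 100 members 72 rose and 4 fell. IME2, a kinase that drives meiosis, stood at 11.2 to 15 CPM in BY47419, 14.5 to 20.2 in C0, 27.4 to 40.2 in C3-06, 19.2 to 22.4 in C5-63 and 15.8 to 18.1 in C7-143, and rose by 0.58 ± 0.16 (adjusted p = 0.0029, edgeR). The 7 sporulation markers, of which IME2 is one, summed to 91.2 to 97.2 plain CPM in BY47419, 120 to 126 in C0, 174 to 179 in C3-06, 168 to 175 in C5-63 and 120 to 131 in C7-143. IME2 is a member, with plain means of 34.8 CPM in C3-06 and 23.4 in C5-63, so the peak of the sum follows in part from the choice. Of the markers that are not members, NDT80 (62.6 and 66.7 CPM), SMK1 (31.4 and 36.4) and SPR3 were higher in C5-63. SPS4, DIT1 and SPO11 were higher in C3-06.

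The remaining groups are small, and their counts of members that rose in C5-63 against BY47419 are descriptions. Over all genes tested 42.7% rose and 42.4% fell, and of the 100 members 72 rose and 4 fell. Of 9 members of transcription, chromatin and RNA, 6 rose and 2 fell; besides ESF1 they include ROX3, a Mediator subunit (1.02 ± 0.08), SHQ1, an assembly factor of H/ACA ribonucleoproteins (0.99 ± 0.09), and EAF1, of the NuA4 acetyltransferase complex (0.82 ± 0.10). Of 6 detoxification genes and oxidoreductases 5 rose; the sixth, HBN1, stood at 12.1, 16.2 and 13.8 CPM in BY47419, 16.0, 13.1 and 18.0 in C0, 22.7, 27.0 and 35.9 in C3-06, 14.5, 14.8 and 18.7 in C5-63 and 12.6, 10.5 and 14.0 in C7-143 (C5-63 against BY47419 0.19 ± 0.18, adjusted p = 0.34, edgeR). Of 8 mitochondrial members 5 rose and PRX1 fell. SRF1, a regulator of phospholipase D, stood at 116, 114 and 103 CPM in BY47419, 119, 122 and 108 in C0, 265, 265 and 259 in C3-06, 203, 204 and 208 in C5-63 and 104, 108 and 115 in C7-143, and rose by 0.88 ± 0.06 in C5-63 against BY47419 (adjusted p = 1.4e-09, edgeR). Of 6 metal-related members 3 rose: ATX1, the copper chaperone (1.12 ± 0.16), CUP2, the copper-sensing activator (0.40 ± 0.06), and YOR387C (1.47 ± 0.28). ATX1 stood at 7.79, 8.18 and 8.10 CPM in BY47419, 10.2, 14.8 and 11.8 in C0, 37.7, 29.3 and 30.8 in C3-06, 17.3, 19.5 and 15.5 in C5-63 and 15.9, 19.6 and 14.0 in C7-143, with C5-63 and C7-143 overlapping. Of 5 transporters of other solutes VBA2 and FCY21 rose; SUL1, the sulfate permease, was at -0.04 ± 0.07, and at 0.42 with library totals alone. Of 8 members of membranes, cytoskeleton and signalling 7 rose, and of 6 for amino acid, nucleotide and nitrogen metabolism 5 did. Another 11 members were given no role, and 8 of them rose; YPR145C-A had the largest log2 fold change of the members, 2.86 ± 0.22, from 5.77, 8.12 and 10.1 CPM to 59.7, 60.5 and 53.9 CPM.

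The C3-06 libraries differed among themselves. The range over the 3 was 0.24 on the log2 scale in the median member and above 0.5 in 17. The widest were YHR007C-A, YOR387C and UPS3. YHR007C-A stood at 4.19, 3.57 and 5.27 CPM in BY47419, 4.31, 4.06 and 4.11 in C0, 14.9, 6.93 and 8.87 in C3-06, 3.63, 4.79 and 3.60 in C5-63 and 3.25, 4.13 and 6.18 in C7-143. YOR387C stood at 3.39, 2.76 and 2.16 CPM in BY47419, 4.04, 5.80 and 3.65 in C0, 17.1, 8.49 and 10.4 in C3-06, 8.88, 8.15 and 5.96 in C5-63 and 6.16, 7.07 and 7.52 in C7-143. UPS3, a paralogue of mitochondrial phospholipid transfer proteins, stood at 22.9, 25.0 and 22.6 CPM in BY47419, 23.3, 30.2 and 24.2 in C0, 62.1, 32.6 and 33.6 in C3-06, 23.8, 29.5 and 27.2 in C5-63 and 20.7, 19.4 and 23.9 in C7-143. Replicate 1 was the highest in all 3 genes. It was the highest of the C3-06 libraries in 68 members on the TMM scale but in 42 on plain CPM, and the Msn2 and Msn4 stress genes took 5.21% of its reads against 3.67% and 4.11% in the others. Members chosen again without it shared 81 of the 100, and on the TMM scale without it 71.

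The peak was looked up in libraries that the choice had not used. With 1 replicate number left out at a time, 100 genes were chosen from the other libraries, and the left-out library of C3-06 lay above those of C0 and C7-143 in 95, 99 and 100 of them for numbers 1, 2 and 3. Over all genes that could have been chosen the shares were 21.1%, 27.2% and 25.6%. The median of the smaller difference in the left-out libraries was 0.69, 0.62 and 0.63 on the log2 scale. The left-out libraries come from the same strains and may be technical repeats, so a return of the peak was near certain beforehand. The look-up concerns the spread among libraries alone and is no test of the peak.

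Of properties the rule did not use, the members' annotation leaned to the cell surface. The term fungal-type cell wall was carried by 7% of members and 1.85% of the genes that could have been chosen, extracellular region by 9% and 2%, and spore formation by 5% and 1.7%. Mitochondrion stood at 20% and 20.9%, and nucleus at 29% and 39.9%. These terms were picked after the members were known. Of 35 gene lists, 20 held no member, among them glycolysis, ergosterol synthesis, ribosome biogenesis, the Msn2 and Msn4 stress genes and G1 and S phase. These named lists hold 24, 27, 65, 28 and 41 of the genes that could have been chosen. With 100 members among 5291 such genes, a list of that size can hold none without being unusual, and nothing is read from the count. The members' median coding length was 1105.5 bases, against 1293.

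Members lay on 15 of the 16 chromosomes: 11 of the 363 genes that could have been chosen on chromosome II, 14 of 701 on IV, 2 of 440 on XII and none of 78 on I. In 4 places 2 members were direct neighbours: BIO4 and BIO3, RAD55 and SED1, VBA2 and SUL1, and YPL278C and YPL277C. Neighbours did not always share levels: RAD55 was at 65.5, 35.7 and 38.9 CPM in the C3-06 libraries, next to SED1 at 8208 CPM or more. YCL042W overlaps GLK1, a glucokinase gene at a mean of 4909 CPM in C3-06, by 106 bases on the same strand, and PIN2 overlaps YOR105W by 296, so their reads could have been shared.

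For 16 motifs searched on both strands in the promoter windows, the share of members is given beside that of all 5979 windows. The stress motif AGGGG of Msn2 and Msn4 was in 31% of members and 21.6% of all, GATGAG (PAC) in 25% and 20.4%, GGCGGC (Ume6) in 9% and 5.15%, and TGTGGC (Met31 and Met32) in 12% and 7.84%. The last fell to 6% and 6.42% in the 250 bases before the start alone. The Rgt1 motif CGGANNA was in 24% and 26.4%, AAAAATTT (RRPE) in 12% and 14.2%, and TGACTC (Bas1), which lies within the Gcn4 motif, in 8% and 7.99%. Less frequent in members were TGAAACA (Ste12), in 3% and 7.54%, ACGCGT (MCB), in 1% and 3.08%, and CGCGAAA (SCB), in 2% and 3.61%. The others were TGACTCA (Gcn4) in 4% and 2.73%, CACGTG (Pho4) in 4% and 2.91%, GGTGGCAAA (Rpn4) in 3% and 1.19%, CGGNNCCG (Leu3) in 2% and 0.903% and TGCACCC (Aft1) in 2% and 1.27%. The Rlm1 motif was in 3 members, PTP2, BGL2 and FCY21, and in 1% of all windows, and not in the windows of SLT2 and PST1. It and the Rgt1 motif were added after the members were known. A match is a run of letters and not a shown binding site.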

How the data were processed

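RNA sequencing of 15 libraries was analysed from 1 table, in which the authors deposited 2 values for each gene in each library: unnormalised read counts and FPKM. Reads were aligned with HISAT2 per the submitters' processing notes, which give no version. How reads were counted, and whether by strand, is not given in the sources used here, so reads of overlapping or antisense genes cannot be told apart. Of the 5980 genes, 5972 have the same start and end in R64, as do all 100 members. The deposited FPKM values were used only for levels per length. Carotenoid and nuclease genes were not analysed here.

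Counts were fitted with edgeR 4.0.16 under R 4.3.3 (TMM scaling; a filterByExpr filter of at least 10 reads and 15 in total, which left 5814 genes; robust quasi-likelihood fit of all 15 libraries with strain as the factor). Tests are two-sided, with Benjamini-Hochberg adjustment over all genes tested and calls below 0.05. The SE is the size of the log2 fold change divided by the square root of F. On simulated counts, with a small share of genes changed in both directions alike, the fit recovered known changes. In the real contrast most genes were called, so the simulation does not test the scaling there. Alternatives were DESeq2 1.42.0, other scalings, filters and thresholds, a replicate block and leaving out libraries.

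The members and gene lists were chosen with earlier results of these data known. The use of TMM-scaled levels, the 14 groups of members, the annotation terms, 2 of the motifs and the 4 promoters shown were chosen after values were seen. Members named by rule are the 20 highest scores, those in lists with 3 or more members, the 4 lowest p in each direction, the 3 on each side of the limit, the 3 widest in C3-06 and neighbouring members; others were picked after their values were seen. Counting error is set by 16144808 to 21586409 reads per library. A further motif is not reported here.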

Additional observations from a re-analysis of the deposited data

How the results depend on the processing

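Over the alternatives of the gene test, the difference between the members' median log2 fold change and that of all genes in C5-63 against BY47419 stayed at 0.52 to 0.59. Leaving out single libraries of these 2 strains gave 66 to 73 members higher and 4 to 5 lower, DESeq2 gave 73 and 4, an adjusted p below 0.01 gave 66 and 4, and the replicate block, whose numbers did not pair the libraries (correlations of -0.063 to 0.028 between same-numbered libraries), gave 71 and 4. Library totals alone moved the members' median to 1.02, the members that fell to 1 and all genes that fell from 2467 to 1540. Among the 39 members named by rule, that scaling changed the sign of the log2 fold change in HXT4 (0.40), YHR007C-A (0.34), SED1 (0.37), TOD6 (0.074), TTI1 (0.28), SUL1 (0.42) and YPL278C (0.39). Leaving out 1 library of the 2 strains at a time gave HXT4 values of -0.15 to 0.17 (0.12 without BY47419 replicate 2 and 0.17 without C5-63 replicate 1), YHR007C-A -0.26 to 0.051 (above 0 without BY47419 replicate 3 and, at 0.0047, without C5-63 replicate 3), RAD55 -0.045 to 0.18 and YPL277C -0.0032 to 0.098, the last 2 below 0 without C5-63 replicate 2; none of these was called in the main fit except TOD6. The cause was not tested. When the rule was applied again, 51 members were kept with C5-63 in place of C7-143 and 84 on the TMM scale. Without single libraries 81 to 96 were kept, and 67 were kept in all 9 of these. A minimum of 50 CPM kept 61, and the 50 highest scores kept 50. These last counts were set beforehand by the members' own levels and scores, and say nothing of how stable the choice is.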
